A study of Mus musculus with 4 samples.

Results

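The 34 genes described here encode enzymes and readers of 2 chemical marks on chromatin, the acetylation of histones and the methylation of DNA. They were chosen by name: 11 histone deacetylases (Hdac1 to Hdac11), 7 sirtuins (Sirt1 to Sirt7), 4 acetyltransferases (Kat2a, Kat2b, Ep300 and Crebbp), 5 genes of DNA methylation (Dnmt1, Dnmt3a, Dnmt3b, Dnmt3l and Uhrf1), 3 of DNA demethylation (Tet1, Tet2 and Tet3) and 4 of methyl-CpG binding (Mbd1 to Mbd4). All 34 had a signal on every array, out of 18193 genes measured in all. Each gene was read from its probe set of highest mean signal, and 29 of the 34 passed a low-signal filter that 11513 of all genes passed. The filter level, the median over all probe sets, was a signal of 120.0.

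Gene expression was measured in livers of 2-month-old C57BL/6J mice after 2 exposures to ethylbenzene, an aromatic solvent, or to phosphate-buffered saline (PBS). For the first exposure mice had 2 injections into the peritoneum with 24 h between them. They were injected again 7 days later for the second exposure, and livers were taken 5 h after that. Ethylbenzene was given at 7 mmol per kg, both times. The P+E mice had PBS first and ethylbenzene second (5 mice), the E+E mice ethylbenzene at both exposures (5 mice), the E+P mice ethylbenzene first and PBS second (3 mice), and the P+P mice PBS at both (3 mice). RNA of each group was pooled and put on 1 Affymetrix array, so there are no replicates, no p-value was computed, and no difference could be set against the spread between animals. Pool size goes with the second exposure and cannot be told apart from it.

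Acetyltransferases place acetyl groups on histone lysines with acetyl-CoA as donor, and acetylated chromatin is generally open to transcription. Zinc-dependent deacetylases of classes I, II and IV and the NAD-dependent sirtuins remove acetyl and other acyl groups, from histones and also from metabolic enzymes. DNA methyltransferases mark CpG sites with S-adenosylmethionine as donor, Tet dioxygenases oxidize that mark with alpha-ketoglutarate, and Mbd proteins bind methylated CpG sites. In liver, the deacetylases Hdac3 and Sirt1 and the mitochondrial sirtuin Sirt3 are known as regulators of lipid and energy metabolism.

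The tissue label was checked against 7 measured hepatocyte markers, all of which were above the filter level on every array. The P+P array stood apart in its control signals. Its probe sets for 18S ribosomal RNA had a geometric mean of 1872, against 122 to 182 on the other arrays, and its ratio of 3' to 5' signal for Pcx was 23.5, against 6.15 to 12.0. The ratios that take E+E on top are not taken against that array. It did enter the normalization, the filter and the choice of probe set behind them. Markers of other tissues and cells differed between the arrays. The summed signal of 7 pancreatic acinar genes was 7467 on P+E against 2954 on P+P, and 7559 on E+E against 2427 on E+P. All 7 were above the filter level on P+E and E+E, 4 on P+P and 2 on E+P. Cela1 made up most of the sums after PBS (2338 on P+P and 1904 on E+P) and was lower after ethylbenzene (log2 ratios -0.52 and -0.11). The other 6 were higher in P+E against P+P and in E+E against E+P, and the medians of the 7 were 3.12 and 3.06. The sum of 6 neutrophil genes was 3944 on P+E against 1127 on P+P, and 6321 on E+E against 619.5 on E+P, with S100a8 and S100a9 highest after ethylbenzene; Mpo and Camp were below the filter level on P+E and above it on P+P. The sum of 8 Kupffer cell markers was 10607 on P+E against 11766 on P+P, and 12532 on E+E against 18948 on E+P, and all 8 were lower in E+E against E+P (median log2 ratio -0.57). The sum of 6 stellate cell markers was 3524 on P+E against 5106 on P+P, and 5090.2 on E+E against 5774 on E+P, and all 6 were lower in P+E against P+P (median -0.53). The sums were 9144 on P+E against 10797 on P+P, and 8622 on E+E against 11028 on E+P for 6 sinusoidal endothelial markers, 1008 on P+E against 920.3 on P+P, and 1265 on E+E against 799 on E+P for 4 cholangiocyte markers, and 449.9 on P+E against 528 on P+P, and 694 on E+E against 778 on E+P for 6 lymphocyte markers. The part of these cells in the results was not tested, and in whole liver fewer cells of a type and less RNA per cell cannot be told apart.

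Few of these chromatin genes differed strongly 5 h after the second exposure. Signals are given after quantile normalization of the 4 arrays, and ratios as differences of log2(signal + 43.2), which understates differences of low signals. Values for the second exposure come in pairs, first P+E against P+P (mice given PBS first), then E+E against E+P (mice given ethylbenzene first), which share no array. Folds are taken from the same scale. A change was counted when it reached 2-fold, which is 1 in log2 units. In P+E against P+P, 4 of 29 members were at least 2-fold apart, all of them lower (Hdac11, Sirt4, Dnmt3l and Tet1), which is 13.8% beside 13.2% of all genes. In E+E against E+P, 5 were, 2 lower (Hdac11 and Sirt7) and 3 higher (Sirt4, Tet1 and Tet3), which is 17.2% beside 13.7%. Taken either way, both shares lie near those of all genes. By direction, 13.8% of the members were lower in the first ratio beside 6.7% of all genes, and 0 were higher beside 6.53%. In the second, 6.9% were lower beside 6.75%, and 10.3% were higher beside 6.91%. Of the called members, 3 of 4 in the first ratio and 3 of 5 in the second had an array below the filter level. The median log2 ratio of the members was -0.10 and -0.05, that of all genes -0.07 and -0.05.

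Only Hdac11 was at least 2-fold lower in both ratios, as were 1.86% of all genes, and no member was at least 2-fold higher in both, as were 2.87%. With 1.5-fold as the rule, Hdac11 and Sirt3 were lower in both (6.9% of the members beside 6.58% of all genes) and Tet3 was higher (3.45% beside 6.46%). Both arrays after ethylbenzene lay below both PBS arrays for 10 members (34.5% beside 31.1%): Hdac3, Hdac11, Sirt1, Sirt2, Sirt3, Sirt7, Kat2b, Ep300, Dnmt3l and Mbd3. They lay above them for 5 (17.2% beside 22.3%): Hdac4, Hdac6, Hdac10, Sirt5 and Mbd1. Since 1 member is 3.45% of the list, these shares differ from those of all genes by few members. No result about the list as a whole is drawn from the size or direction of its changes.

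**Figure D1:**
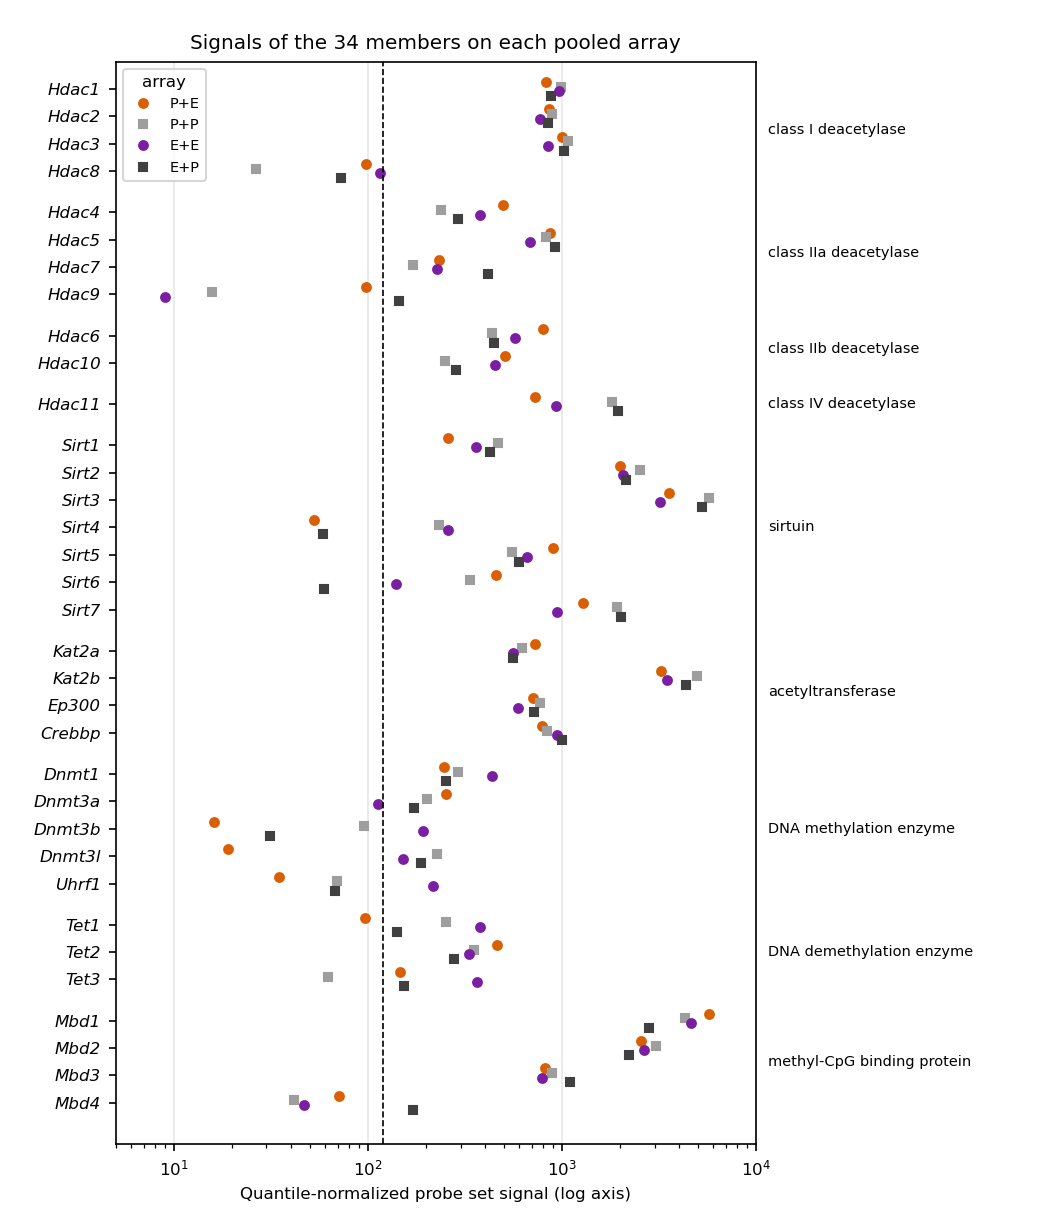
Quantile-normalized signal of each of the 34 members (log axis) on the P+E, P+P, E+E and E+P arrays, 1 point per pooled array, with circles after ethylbenzene and squares after PBS as the second exposure; the dashed line is the filter level of 120.0. The circles of Hdac11, Sirt3, Sirt7 and Kat2b sit left of both squares, those of Hdac4, Hdac6 and Hdac10 right of them, and the points of Dnmt3b, Hdac9, Uhrf1 and Mbd4 scatter around or below the line.

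Hdac11 encodes the only class IV deacetylase, an enzyme that removes long fatty acyl groups from lysines. Its signal was 727 on P+E against 1814 on P+P, and 926 on E+E against 1950.3 on E+P. The arrays after ethylbenzene were both below the arrays after PBS, by 2.41-fold and 2.06-fold, and the arrays that shared the second exposure lay close to each other (first-exposure log2 ratios of 0.10 for E+P against P+P and 0.33 for E+E against P+E). A second Hdac11 probe set had log2 ratios of -1.10 and -0.42, lower in both but short of 2-fold in the second. With the mean of its probe sets, Hdac11 was at -0.73 in the second ratio, and the count of members 2-fold lower in both was then 0. With the larger pseudocount tried the second ratio was -0.98, also short of 2-fold.

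Among the sirtuins, Sirt1, Sirt2, Sirt3 and Sirt7 were lower on both arrays after ethylbenzene, Sirt2 by little in the second ratio (-0.34 and -0.05). Sirt3, the main deacetylase of the mitochondrial matrix, had signals of 3563 on P+E against 5699 on P+P, and 3195 on E+E against 5290.1 on E+P. It was 1.59-fold and 1.65-fold lower, nearly the same in both kinds of mice, with first-exposure log2 ratios of -0.11 and -0.16. Sirt7, a nucleolar deacetylase that acts on ribosomal RNA transcription, had signals of 1280.3 on P+E against 1925 on P+P, and 945 on E+E against 2003 on E+P. The log2 ratios were -0.57 and -1.05, past 2-fold only in the second, and short of it there (-0.99) with the larger pseudocount. Sirt1, the nuclear sirtuin that couples NAD to metabolic gene control, had signals of 259.6 on P+E against 466 on P+P, and 362 on E+E against 427 on E+P. Its log2 ratios were -0.75 and -0.21, the larger in mice given PBS first. With 1 array per group, no dependence on the first exposure is drawn from these 2 values. Sirt3, Sirt7 and Sirt1 were each read from their only probe set.

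Kat2b (PCAF), an acetyltransferase of SAGA-type complexes, was also lower on both arrays after ethylbenzene. Its signals were 3228 on P+E against 4953 on P+P, and 3459 on E+E against 4349 on E+P, with log2 ratios of -0.61 and -0.33. All 3 of its probe sets were lower in both ratios, the others at -0.51 and -0.78, and at -2.64 and -0.45. The last of these had signals of 7.75 on P+E against 274 on P+P, so its first ratio rests on a signal below the filter level. With the mean of all 3 the Kat2b ratios were -1.25 and -0.52.

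The start regions of Hdac11, Sirt3, Sirt7 and Kat2b are shown because these genes are described above. They were picked after their values were seen, from the 10 members with both arrays after ethylbenzene below both PBS arrays, so the motif counts describe these 4 alone. The sequences run from 250 bases before to 50 after the RefSeq gene start (GRCm38.p6), 5′ to 3′ on the gene's strand, with CG dinucleotides, the sites that DNA methyltransferases and Tet enzymes act on, in capitals. The Hdac11 region lies at chr6:91156565-91156864, plus strand, that of Sirt3 at chr7:140882260-140882559, minus strand, that of Sirt7 at chr11:120624965-120625264, minus strand and that of Kat2b at chr17:53566721-53567020, plus strand. For Sirt3 and Kat2b the first of 2 RefSeq entries is shown.
Hdac11: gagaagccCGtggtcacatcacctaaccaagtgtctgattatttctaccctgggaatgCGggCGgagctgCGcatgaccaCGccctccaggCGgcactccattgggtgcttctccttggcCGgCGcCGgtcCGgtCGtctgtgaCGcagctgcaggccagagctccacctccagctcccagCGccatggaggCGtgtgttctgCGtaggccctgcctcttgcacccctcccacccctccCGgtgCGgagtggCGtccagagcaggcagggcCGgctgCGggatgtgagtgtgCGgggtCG
Sirt3: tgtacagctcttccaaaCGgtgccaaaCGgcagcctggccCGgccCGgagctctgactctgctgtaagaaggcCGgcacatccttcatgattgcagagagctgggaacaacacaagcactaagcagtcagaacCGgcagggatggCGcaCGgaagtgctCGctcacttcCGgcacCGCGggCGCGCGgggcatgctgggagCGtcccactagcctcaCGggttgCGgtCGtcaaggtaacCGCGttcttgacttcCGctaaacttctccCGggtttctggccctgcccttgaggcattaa
Sirt7: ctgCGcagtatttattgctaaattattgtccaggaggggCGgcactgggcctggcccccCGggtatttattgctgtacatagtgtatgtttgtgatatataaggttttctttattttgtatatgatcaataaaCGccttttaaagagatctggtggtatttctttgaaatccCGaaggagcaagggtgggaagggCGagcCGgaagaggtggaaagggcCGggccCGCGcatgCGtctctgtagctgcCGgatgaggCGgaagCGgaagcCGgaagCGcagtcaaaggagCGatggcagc
Kat2b: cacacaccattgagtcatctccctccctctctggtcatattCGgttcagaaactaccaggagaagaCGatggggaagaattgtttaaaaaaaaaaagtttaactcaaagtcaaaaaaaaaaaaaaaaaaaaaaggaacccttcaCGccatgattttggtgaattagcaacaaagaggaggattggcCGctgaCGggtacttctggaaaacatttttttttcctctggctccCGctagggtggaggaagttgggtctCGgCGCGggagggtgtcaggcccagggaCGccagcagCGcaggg

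The regions hold 22 CG dinucleotides for Hdac11, 23 for Sirt3, 17 for Sirt7 and 11 for Kat2b. The median was 20 over the 43 entries of 29 members with a RefSeq start region and 7 over all 32851 regions in the table. A few motifs were searched on both strands. None of the 4 regions held an E-box (CACGTG, in 7.15% of all regions), a D-box (TTATGTAA, 0.938%), a nuclear receptor half-site (AGGTCA, 16.3%) or a full cAMP response element (TGACGTCA, 1.79%). A GC box (GGGCGG, 35.7%) was found once each in Hdac11 and Sirt7, and a CCAAT box (CCAAT, 37.4%) once each in Hdac11 and Kat2b. The core of the antioxidant response element (TGACNNNGC, 12.4%) matched 2 times in Hdac11 and once each in Sirt3 and Sirt7, but not in Kat2b. No motif was found in all 4 regions, and no match overlapped one of another motif. These are matches of letters, not measured binding sites, and methylation of these regions was not measured.

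**Figure D2:**
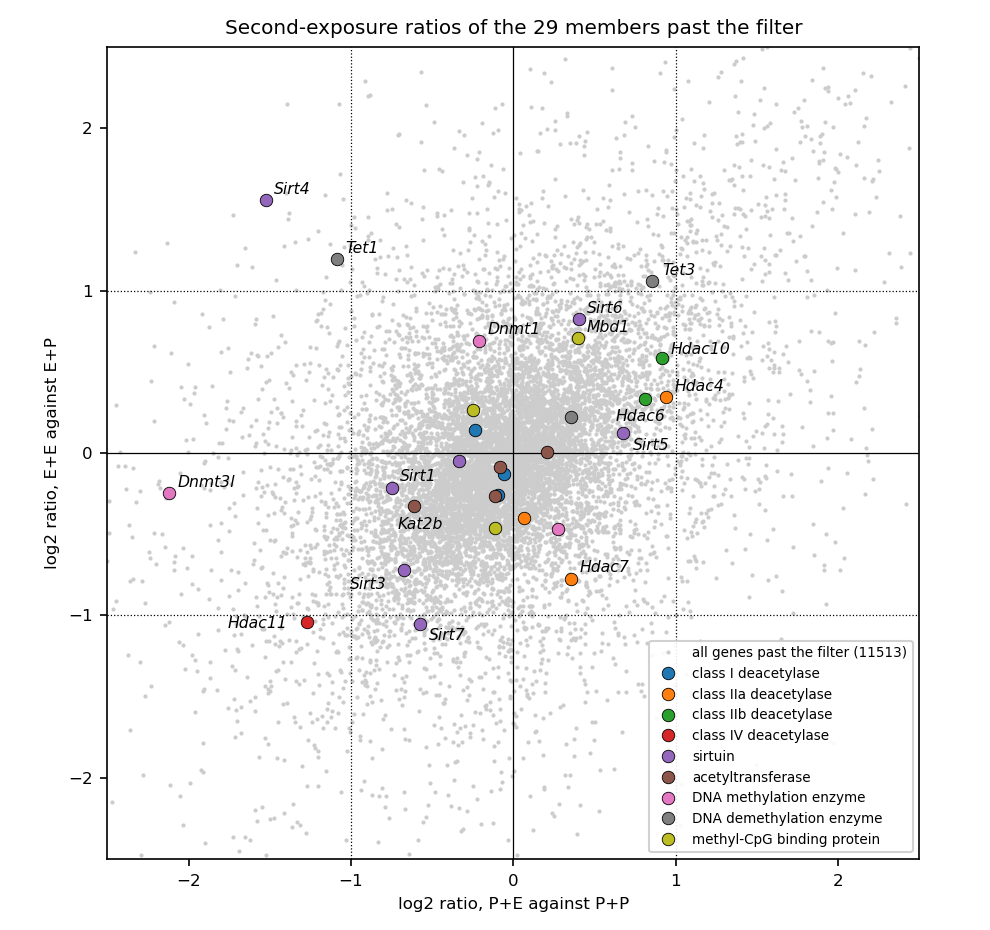
Log2 ratio of P+E against P+P (x axis) and of E+E against E+P (y axis) for the 29 members past the filter, coloured by class, over all 11513 genes past the filter in grey; 171 of these genes lie outside the axes, and dotted lines mark 2-fold. Hdac11 lies beyond 2-fold lower on both axes, Sirt3, Sirt7 and Kat2b are below 0 on both, and Sirt4 and Tet1 lie in the corner where the 2 ratios oppose each other.

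Hdac10, Hdac6 and Hdac4, deacetylases of class II, were higher on both arrays after ethylbenzene. Hdac10, of class IIb and a polyamine deacetylase, had signals of 511 on P+E against 251 on P+P, and 449 on E+E against 286 on E+P. Its log2 ratios were 0.92 and 0.58. Hdac6, the class IIb deacetylase of tubulin, had signals of 798 on P+E against 437 on P+P, and 574 on E+E against 446 on E+P, which gave 1.75-fold and 1.26-fold higher values. Hdac4, a class IIa corepressor that shuttles between cytoplasm and nucleus on phosphorylation, had signals of 497 on P+E against 238 on P+P, and 380.1 on E+E against 291 on E+P. Its log2 ratios were 0.94 and 0.34. All 3 Hdac4 probe sets were higher in both ratios, at 0.14 and 0.49 and at 0.41 and 1.17 for the others. None of the 3 genes reached 2-fold in either ratio by its brightest probe set, and each then had a smaller ratio in mice given ethylbenzene first. That order depended on the probe set, since the other Hdac4 probe sets had the larger ratio there, as did Hdac10 with the mean of its 2 probe sets (0.63 and 1.15), of which the dimmer was below the filter. The first Hdac4 ratio passed 2-fold with signals as deposited (1.02).

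The other class IIa members were mixed. Hdac5 had log2 ratios of 0.06 and -0.40. Hdac7, known from endothelial cells and thymocytes, had signals of 232 on P+E against 172 on P+P, and 227 on E+E against 418 on E+P. Its highest signal was on E+P, and its ratios were 0.36 and -0.77. The second Hdac7 probe set was at 0.32 and -0.25, the same signs at smaller size.

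The class I deacetylases, the catalytic core of the large nuclear corepressor complexes, were within 1.5-fold in both ratios for the 3 members past the filter. Hdac3, the enzyme of the NCoR complex, had signals of 1003 on P+E against 1075 on P+P, and 847 on E+E against 1020.1 on E+P. The ratios were -0.10 and -0.26, with the arrays after ethylbenzene just below those after PBS. Hdac1 was at -0.24 and 0.14 and Hdac2, its partner in the Sin3, NuRD and CoREST complexes, at -0.06 and -0.13. A second probe set of Hdac2 was lower at -0.97 and -0.39, so the size of its difference depended on the probe set.

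3 of the 4 acetyltransferase genes differed little by their brightest probe set. Crebbp (CBP) was at -0.08 and -0.09 and Ep300 (p300) at -0.11 and -0.26; both encode general transcriptional coactivators. The other Crebbp probe set past the filter was at 0.65 and -0.04, higher in the first ratio. Kat2a (GCN5), the paralog of Kat2b, was at 0.21 and 0.00. However, the other 2 Kat2a probe sets, with a comparable mean signal for 1 of them, were lower in both ratios, at -0.50 and -0.96 and at -0.59 and -0.92. The probe sets of Kat2a and Crebbp thus disagreed.

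The remaining sirtuins did not move one way. Sirt2, a mainly cytoplasmic deacetylase, was at -0.34 and -0.05. Sirt5, a mitochondrial enzyme that removes succinyl and malonyl groups, was at 0.67 and 0.12 by its brightest probe set and at -0.60 and -0.53 by the next, in opposite directions. Sirt4, another mitochondrial sirtuin, had signals of 52.5 on P+E against 232 on P+P, and 258 on E+E against 59 on E+P. It was lower in the first ratio and higher in the second (-1.53 and 1.56), and with signals below the filter level set to it the values were -0.76 and 0.88, short of 2-fold. Sirt6, a chromatin-bound deacetylase, had log2 ratios of 0.40 and 0.83. The second rests on an E+P signal below the filter level, and with that signal at the level it was 0.16.

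**Figure D3:**
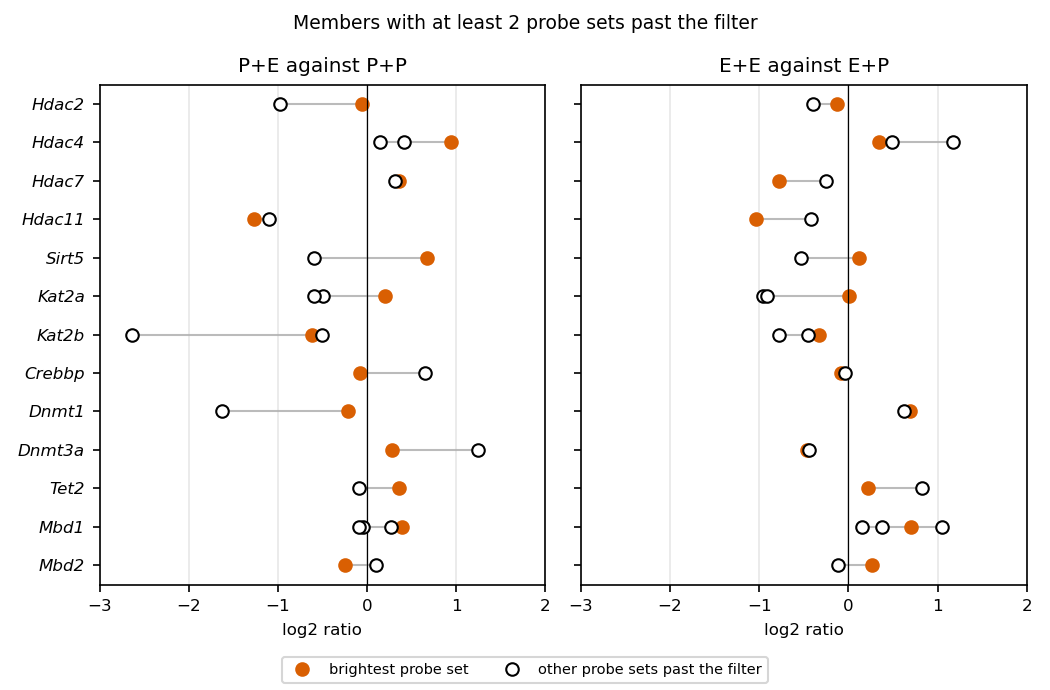
Log2 ratio of each probe set past the filter (P+E against P+P on the left, E+E against E+P on the right) for the 13 members with at least 2 of them; the filled point is the brightest probe set, open points are the others, and the grey line is their range. All points of Hdac2, Hdac11 and Kat2b lie below 0 and all points of Hdac4 above 0 in both panels, whereas those of Sirt5 and Kat2a lie on both sides of 0 or at it.

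Of 13 members with at least 2 probe sets past the filter, 4 had every probe set on the same side in both ratios (Hdac2, Hdac4, Hdac11 and Kat2b), which is 30.8% beside 26.5% of 4735 such genes in all. Over these 4735 genes the 2 brightest probe sets of a gene had the same sign in 62.3% and 65.0% of cases for the second-exposure ratios, and in 53.7% and 54.4% for the first-exposure ones. Their spread was an SD of 0.54 and 0.52 in the second-exposure ratios. That spread is between probe sets on the same arrays and leaves out the spread between animals.

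No gene of DNA methylation passed 2-fold in one direction in both ratios. Dnmt1, which copies methylation at replication, had signals of 246 on P+E against 292 on P+P, and 437 on E+E against 254 on E+P. The ratios were -0.21 and 0.69. In the other Dnmt1 probe set past the filter, P+E was the low array and the ratios were -1.63 and 0.63, the same signs with a larger first one. Dnmt3a, a de novo methyltransferase, was at 0.28 and -0.47, with the other probe set past the filter at 1.25 and -0.45. Dnmt3l, an inactive cofactor of the de novo enzymes known from germ cells, had signals of 19 on P+E against 227 on P+P, and 151 on E+E against 187 on E+P. The P+E array was the low one, and with it at the filter level the ratio of P+E against P+P was -0.73 in place of -2.12.

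The 3 Tet genes, whose products oxidize 5-methylcytosine, differed from one another. Tet3 had signals of 147 on P+E against 62 on P+P, and 366 on E+E against 153 on E+P. It was higher in both ratios (0.85 and 1.06), but with P+P at the filter level the first was 0.22. Tet2, whose product is a dioxygenase best known from blood cells, was at 0.35 and 0.22, and its other probe set past the filter, of similar mean signal, at -0.09 and 0.83. Tet1 had signals of 96.2 on P+E against 253 on P+P, and 378 on E+E against 141 on E+P, with log2 ratios of -1.09 and 1.20. The Tet1 difference in the first ratio turned to 0.15 when its 4 probe sets, 3 of them below the filter level, were averaged. Sirt4 and Tet1 were the members at least 2-fold apart in opposite directions in the 2 ratios, which is 6.9% of the members beside 0.46% of all genes, and both had an array below the filter level.

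The methyl-CpG binding genes differed less. Mbd1, a transcriptional repressor at methylated promoters, had signals of 5698 on P+E against 4317 on P+P, and 4633 on E+E against 2822 on E+P. Its log2 ratios were 0.40 and 0.71, and only 2 of its 4 probe sets past the filter were higher in both. Mbd2, which brings the NuRD complex to methylated DNA, was at -0.25 and 0.27, with its other probe set at 0.10 and -0.12. Mbd3, a NuRD subunit that binds methylated DNA weakly in mammals, was at -0.11 and -0.46.

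Hdac8, Hdac9, Dnmt3b, Uhrf1 and Mbd4 were below the filter by their mean. Hdac8, a deacetylase of cohesin, had 98.3 on P+E against 26.4 on P+P, and 115 on E+E against 73 on E+P. All 4 of its signals were under the filter level. Hdac9, a class IIa deacetylase, had 98.1 on P+E against 15.7 on P+P, and 8.97 on E+E against 145 on E+P. Dnmt3b, a de novo methyltransferase, had 16.2 on P+E against 95.7 on P+P, and 192 on E+E against 31.3 on E+P. Uhrf1, which recruits Dnmt1 to newly replicated DNA, had 34.9 on P+E against 69.4 on P+P, and 218 on E+E against 67.4 on E+P. Dnmt3b and Uhrf1 were above the level on E+E alone. Mbd4, a DNA glycosylase, had 70.8 on P+E against 41.8 on P+P, and 47 on E+E against 171 on E+P. Like Hdac9, it was above the level on E+P alone. For these 5 genes the low signals carry no order, and no direction is drawn. The summed signal of 9 markers of dividing cells was 3941 on P+E against 4297 on P+P, and 4778 on E+E against 4474 on E+P. Of the 9, 3 to 6 were above the level. Pcna made up most of each sum (3270 on P+E, 2653 on P+P, 3111 on E+E and 2910 on E+P). By gene, 7 of the 9 were below 0 in P+E against P+P and 3 in E+E against E+P. In E+E against P+E, 7 were above 0 and 2 below. The part of dividing cells in the signals of Dnmt1, Dnmt3b and Uhrf1 was not tested.

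Partner and cofactor genes of these enzymes were described in 8 lists. Among subunits of class I deacetylase complexes, 16 of 19 were below 0 in each ratio, as were 55.5% and 54.2% of all genes, with medians of -0.34 and -0.28 beside -0.07 and -0.05 for all genes. Both arrays after ethylbenzene lay below both PBS arrays for 12 of the 19 (beside 31.1% of all genes). In the first ratio 2 were at least 2-fold lower and 0 higher, and in the second 3 were lower and 1 higher. Of all genes, 6.7% were lower and 6.53% higher by that rule in the first ratio, and 6.75% lower and 6.91% higher in the second. Sap30, a subunit of the Sin3 complex, had signals of 214 on P+E against 479 on P+P, and 73.3 on E+E against 373 on E+P. It was the only one of the 19 at least 2-fold lower in both (-1.02 and -1.84), beside 1.86% of all genes. It remained so (-1.02 and -1.35) when E+E was raised to the filter level. The first Sap30 ratio fell short of 2-fold with signals as deposited (-0.94), at a common 75th percentile (-0.99) and with the larger pseudocount tried (-0.83), so the call in both was lost there. Rbbp4, the histone-binding protein shared by several of these complexes, had signals of 2996 on P+E against 6704 on P+P, and 3761 on E+E against 6609.7 on E+P. Its ratios were -1.15 and -0.81, and all 3 of its probe sets past the filter were lower in both. Tbl1xr1, of the NCoR complex, was higher (0.98 and 1.18) by its brightest probe set, but at 0.37 and -0.03 by the next.

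Sirtuins consume NAD, and 2 genes of NAD supply were lower on both arrays after ethylbenzene. Nampt, the rate-limiting enzyme of NAD salvage from nicotinamide, had signals of 1180.1 on P+E against 4415 on P+P, and 1562 on E+E against 3866 on E+P. It was 3.64-fold and 2.43-fold lower, and all 3 of its probe sets were lower in both ratios. Nmrk1, which makes NAD precursor from nicotinamide riboside, had signals of 205 on P+E against 1336 on P+P, and 286 on E+E against 1417 on E+P. It was 5.55-fold and 4.44-fold lower, and its other probe set past the filter was at -1.12 and -0.33. Kynu, of the kynurenine branch that leads to NAD from tryptophan, was higher at 0.81 and 0.88. The other 10 of the 13 genes of the list were less than 2-fold apart in both, and the list medians were -0.08 and -0.30. Of the 13, 9 were below 0 in the first ratio and 10 in the second, beside 55.5% and 54.2% of all genes. Both arrays after ethylbenzene lay below both PBS arrays for 8 (beside 31.1%) and above them for 2 (beside 22.3%).

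Nnmt, which methylates nicotinamide with S-adenosylmethionine and so draws on both the methyl donor and the NAD precursor, had signals of 26719 on P+E against 6605 on P+P, and 25454 on E+E against 7086 on E+P. It was 4.03-fold and 3.58-fold higher, the only gene of 11 in S-adenosylmethionine supply at least 2-fold higher in both ratios (beside 2.87% of all genes). Cbs, which takes homocysteine out of the methionine cycle, was at 0.98 and 0.97, just under 2-fold in both, and Bhmt, which returns homocysteine to methionine, at 1.07 and 0.56. The list medians were 0.16 and -0.10. Of the 13 genes that read methyl-CpG or repair DNA bases, Apex1, an endonuclease of base excision repair, had signals of 4231 on P+E against 2128 on P+P, and 5340.5 on E+E against 1716 on E+P. Its ratios were 0.98 and 1.61 and all 3 probe sets were higher in both. The next probe set, of similar mean signal, was at 1.22 and 1.70, past 2-fold in both, and the third at 0.80 and 1.63. Ung, a uracil glycosylase, was higher at 0.94 and 1.85, while Zbtb33 (Kaiso), a reader of methylated DNA, was lower at -1.16 and -0.94 by its brightest probe set. The other Zbtb33 probe set past the filter was at -1.78 and 1.21, so the second ratio had no settled direction. By the brightest probe set, none of these 3 genes passed 2-fold in both ratios. Of the 13, the first ratio put 1 at least 2-fold above 0 and 1 below, beside 6.53% and 6.7% of all genes. The second put 2 above and 1 below, beside 6.91% and 6.75%.

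In the other 4 lists no gene passed 2-fold in the same direction in both ratios. Among other acetyltransferases and their subunits, 18 of 24 were below 0 in the first ratio and 13 in the second, beside 55.5% and 54.2% of all genes. The medians were -0.33 and -0.03. Both arrays after ethylbenzene lay below both PBS arrays for 10 of the 24 (beside 31.1%) and above them for 2 (beside 22.3%). Of 24 other acetyltransferases and their subunits, Tada2a (-1.67 and 0.10), Naa60 (-1.14 and -0.57) and Atat1, a tubulin acetyltransferase (-1.04 and -0.80), had the largest values, and 3 genes in all were past 2-fold in the first ratio, each lower, and 0 in the second. Of 13 acetyl-lysine readers they were Mllt1 (-1.18 and 0.42), Yeats2 (-1.05 and -0.45) and Baz2b (0.32 and 0.91), with 2 genes past 2-fold in the first ratio, both lower, and 0 in the second. Beside the counts of both lists, 6.7% of all genes were lower and 6.53% higher by that rule in the first ratio. In the second, 13.7% of all genes were past it either way. The first Mllt1 ratio rests on a P+E signal below the filter level, and the other probe sets past the filter were at -0.22 and -1.01 for Yeats2 and at -0.02 and 0.74 and 0.96 and -0.21 for Baz2b. In acetyl-CoA supply (8 genes) Slc25a1, the mitochondrial citrate carrier, was at -0.79 and -0.42, Acss2 at -0.20 and -0.57 and Acly, which makes cytosolic acetyl-CoA, at -0.34 and -0.37. Among 8 genes of alpha-ketoglutarate and its competitors, Fh1, which clears the Tet inhibitor fumarate, was higher at 0.82 and 0.97, with Idh3a at -0.41 and -0.51 and Idh1 at 0.13 and 0.36. The second-brightest probe sets were at 0.24 and -0.43 for Acly, -0.02 and -0.06 for Idh3a and -0.17 and -0.11 for Idh1. No gene of these last 2 lists reached 2-fold in either of the second-exposure ratios.

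**Figure D4:**
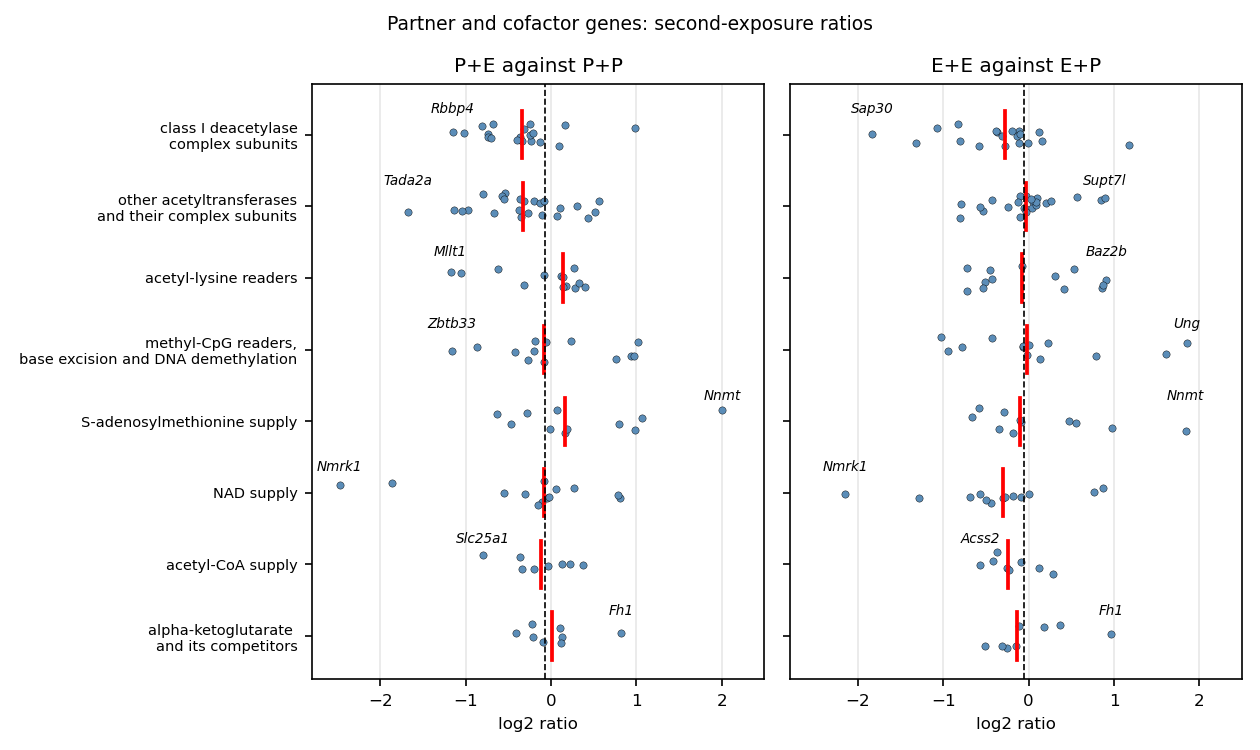
Log2 ratio of P+E against P+P (left) and of E+E against E+P (right) for each gene past the filter in 8 lists of partners and cofactors; each point is a gene, spread vertically at random within its list, the red bar is the list's median and the dashed line the median of all genes (-0.07 and -0.05). The name in each list marks its gene of largest size; Nmrk1 stands far to the left and Nnmt far to the right in both panels.

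The first exposure, 7 days earlier, was compared with PBS as the second (E+P against P+P) and with ethylbenzene as the second (E+E against P+E). Pairs of values keep this order. In E+P against P+P, 3 members were at least 2-fold apart (10.3% beside 5.31% of all genes): Hdac7 higher, and Sirt4 and Sirt6 lower. In E+E against P+E, 5 were (17.2% beside 7.96%): Sirt4, Dnmt3l, Tet1 and Tet3 higher, and Sirt6 lower. Sirt4, Sirt6, Dnmt3l, Tet1 and Tet3 each had at least 1 of the 4 arrays below the filter level. The members' medians were -0.11 and -0.14, those of all genes -0.01 and 0.00. The 8 Kupffer cell markers were all higher in E+P against P+P (summed signal 18948 on E+P and 11766 on P+P, median log2 ratio 0.64), and the 6 stellate markers were all higher in E+E against P+E (5090.2 on E+E and 3524 on P+E, median 0.56). Their part in these ratios was not tested. Among the 17 members that passed a filter at the 75th percentile, none reached 2-fold in these ratios. The share of all genes at that filter was not computed, so this count is not read as a result about the members.

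Sirt6 was lower in both first-exposure ratios. Its signal was 59.5 on E+P against 338 on P+P, and 139 on E+E against 459.5 on P+E. Both arrays of mice given ethylbenzene first were below both arrays of mice given PBS first, by log2 ratios of -1.89 and -1.46. The share of all genes with such a separation was not computed, so no result about Sirt6 is drawn from it. Raising E+P to the filter level gave a first value of -1.22. Sirt6 had 1 probe set, so no other probe set could be set beside it. Hdac7, at 1.10 and -0.03, was higher in the first ratio only, and its other probe set was at 0.31. Tet3 was at 0.90 and 1.11, or 0.27 and 1.11 with low signals at the filter level.

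The second-exposure ratios of mice given ethylbenzene first and PBS first were set against each other by subtraction, the ratio of mice given ethylbenzene first minus the ratio of mice given PBS first, for the brightest probe set. For Hdac11 it was 0.23, for Sirt3 -0.05, for Kat2b 0.28 and for Sirt7 -0.48. For the higher genes it was -0.33 for Hdac10, -0.47 for Hdac6 and -0.60 for Hdac4. The sign turned with the probe set for Hdac10, at 0.52 with the mean of all probe sets, and for Hdac4, at 0.17, where the other probe sets gave 0.35 and 0.76. It also turned for 1 Kat2b probe set (-0.27), while the third, with its P+E signal below the filter level, gave 2.19. Each difference holds the error of all 4 arrays, which was not measured. Sirt7, Hdac6 and Sirt3 had 1 probe set each, so their differences could not be set beside those of another. No direction of a difference is drawn for any of these genes.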

How the data were processed

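RNA pooled from 3 or 5 mice per group was measured on 1 Affymetrix array per group, per the labels. The deposited values are intensities, linear signals of 45101 probe sets. How they were summarised and scaled is not given in the sources used here, but the mean after trimming 2% at each end was 500.0 on every array. The arrays' median deposited signals differed (129.9 to 153.1), so the 4 arrays were quantile-normalized and expressed as log2(signal + 43.2), the 25th percentile of all signals. Probe sets with 1 gene symbol (34945) were named through the platform annotation, updated through Entrez identifiers in a RefSeq table (GRCm38.p6). Genes whose mean log2 value reached the median of all probe sets were kept. The files give no detection call. The number of arrays, low signals and the spread between probe sets of a gene limit the precision. Each list is described by counts and medians beside all genes. The named genes are all 34 members and, of each partner list, the 3 with the largest mean size of the second-exposure ratios; other genes named were chosen after their values were seen. Members and lists were chosen with earlier results of these data known. Alternatives covered scaling, pseudocount, filter, probe set choice and fold rule. The steps were tested on simulated data, with changes larger than 2-fold in genes well above the filter. That test does not bear on low signals or on changes near 2-fold. Python 3.11.15, numpy 2.4.6 and pandas 2.3.3 were used.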

Additional observations from a re-analysis of the deposited data

Results flagged for a closer look

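Sirt4 and Tet1 had second-exposure ratios of at least 2-fold in opposite directions. For Sirt4 the difference of the ratios, E+E against E+P minus P+E against P+P, was 3.08, from signals of 52.5 on P+E against 232 on P+P, and 258 on E+E against 59 on E+P; P+E and E+P were the low arrays. For Tet1 it was 2.28, from signals of 96.2 on P+E against 253 on P+P, and 378 on E+E against 141 on E+P, and the other 3 Tet1 probe sets were below the filter level. With 1 pooled array per group these differences were not tested, and the signals on which they rest lie near or below the filter level on at least 1 array.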

How the results depend on the processing

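With 1 array per group, replicate error was not measured. Signal over background limits the values, since 5 of 34 members were below the filter and 4 to 8 members were below its level on any 1 array. No paired analysis was possible because each group is a single pooled array. The counts of members at least 2-fold apart were 4 for P+E against P+P, then 5 for E+E against E+P, then 3 for E+P against P+P and last 5 for E+E against P+E. They became 2, 1, 1 and 3 with the larger pseudocount tried, 7, 9, 5 and 8 of 34 with no filter, and 1, 2, 0 and 0 of 17 with the 75th percentile filter. A 1.5-fold rule gave 12, 10 and 6 for the first 3, and low signals set to the filter level gave 1 in the first and 3 in the last. Normalizing without the P+P array, an alternative added after the data were seen, gave 4 of 27 members in E+E against E+P and 3 of 27 in the last. The count the same way in both second-exposure ratios, 1 (Hdac11), became 2 as deposited, at a common 75th percentile and with a pseudocount of 16, 3 with the 1.5-fold rule, and 0 with the larger pseudocount or the mean of all probe sets. All medians moved by less than 0.1 under the alternatives run. Among named genes, some values of at least 2-fold changed sign. With the mean of all probe sets these were Tet1 in P+E against P+P (0.15) and Mbd4 in E+E against E+P (0.45) and in E+P against P+P (-0.29). Mbd4 was below the filter, so it was not among the members counted in the main setting. Without _s_at, _x_at and _a_at probe sets it was Tbl1xr1 in E+E against E+P (-0.034). The causes were not tested beyond the change of probe sets itself. Hdac11, Sirt3, Sirt7, Kat2b, Nampt and Nmrk1 were below 0 and Hdac4, Hdac6 and Hdac10 above 0 in both second-exposure ratios under every alternative run for single genes.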
